A study of Mus musculus with 8 samples.

Results

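The acetylation of histone H3 at lysine 27 (H3K27ac) was described at 10 loci of effector T cell function, out of 20921 protein-coding genes on chromosomes 1 to 19 and X with a known strand. The loci are the cytokine genes *Ifng*, *Il2*, *Il4*, *Il13*, *Il5*, *Il17a*, *Tnf* and *Lta* and the transcription factor genes *Tbx21* and *Foxp3*. They were chosen by name for these roles, with earlier results of these data known. A locus was taken as the gene body with 20 kb on either side (GRCm38), and a peak was counted at the gene start when it came within 1 kb of the first base of the RefSeq gene.

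P5424 is a mouse T cell precursor line. Wild-type (wt) cells were compared with ΔIkE120 cells, in which CRISPR/Cas9 was used to remove IkE120, an enhancer of *Ikzf1*, and which derive from a clone that was grown by limiting dilution and screened by PCR for loss of the wt allele. Both were subjected to ChIP with an antibody against H3K27ac, 1 library each, so there were no replicates, and no difference between genotypes could be set against a spread between cultures. Other cells of the study were treated with PMA and ionomycin, and whether the cells used for ChIP had been stimulated is not stated. The data are lists of regions called as enriched (peaks), whose depth of sequencing is unknown, and a locus without a peak can still carry acetylation below the level at which peaks were called.

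H3K27ac marks active enhancers and promoters, and genes that a cell can switch on are often acetylated before they are fully expressed. Naive T cells keep most effector cytokine genes silent, and after activation they acquire the fate of Th1, Th2, Th17 or regulatory T cells, each with its own cytokines and its own leading transcription factor. Ikaros, the product of *Ikzf1*, is known to take part in T cell development and in the control of several of these genes.

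The labels were first checked against the peaks. All 252 bases of IkE120 lay under a peak in wt cells and 0 in ΔIkE120 cells. Of 16 marker genes of T cell precursors, 16 had a peak at the start in wt and 15 in ΔIkE120 cells, where *Cd2* had none. The highest −log10 q at these starts in wt cells was 24.0 at *Cd3e*, a chain of the T cell receptor complex. Of 25 marker genes of B cells, myeloid cells, NK and innate lymphoid cells, embryonic stem cells and non-haematopoietic cells, 2 had a peak at the start in wt (*Cd14* and *Mpo*) and 1 in ΔIkE120 cells (*Cd14*). Of all protein-coding genes, 45.0% had a peak at the start in wt and 44.3% in ΔIkE120 cells. Peaks at gene starts were thus found at nearly all T cell precursor markers and at few markers of other cell types. Over the whole locus the lists were less distinct. There 14 of the 25 had a peak in wt and 10 in ΔIkE120 cells, compared with 16 and 16 of the 16 T cell precursor markers. No peak in either list was found at 11 of the 25, compared with 31.7% of all protein-coding loci.

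The lists differed in size, which bears on every comparison between them. The wt list held 34553 peaks over 25189952 bases and the ΔIkE120 list 29902 peaks over 22143580 bases, 0.879 times the wt bases. The median fold enrichment of a peak was 3.04 in wt and 3.16 in ΔIkE120 cells, and the median −log10 q was 4.12 and 4.47. A peak of the other list overlapped 74.4% of the wt peaks and 86.4% of the ΔIkE120 peaks.

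Of the 10 effector loci, 4 had a peak at the gene start in wt cells (*Tbx21*, *Il5*, *Tnf* and *Lta*), compared with 45.0% of all protein-coding genes. In ΔIkE120 cells 3 had one (*Tbx21*, *Tnf* and *Lta*), compared with 44.3% of all genes. These 3 were marked in both lists, against 43.9% of all genes, 1 in wt alone (*Il5*), against 1.12%, and 0 in ΔIkE120 cells alone, against 0.488%. Over the whole locus, 6 members had at least 1 peak in each list, and 4 had none in either (*Ifng*, *Il2*, *Il13* and *Il17a*), where 31.7% of all protein-coding loci had none.

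A locus was called lower or higher in ΔIkE120 cells when its bases under peaks differed by more than 1.5 times and the larger value reached 1000 bases. Called lower were 2 of 10 members (*Il5* and *Foxp3*), compared with 5.11% of all loci, and called higher were 0 of 10, compared with 0.712%. The median member locus had 1189.5 bases under peaks in wt and 872 in ΔIkE120 cells, and the median over all loci was 1358 and 1240. Among loci with bases under wt peaks, the median ratio of ΔIkE120 to wt was 0.857 for the members and 0.929 for all 14139 such loci.

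**Figure D1:**
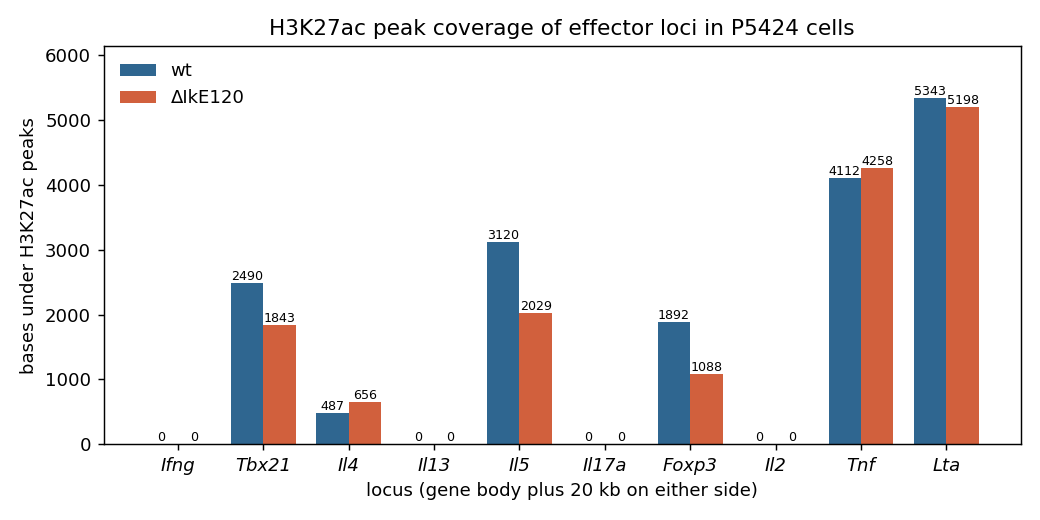
Bases under H3K27ac peaks at each effector locus (gene body plus 20 kb on either side) in wt (blue) and ΔIkE120 (orange) P5424 cells, 1 library each. *Ifng*, *Il13*, *Il17a* and *Il2* are at 0 in both, and *Lta* has the highest value of the members in both lists, 5343 bases in wt and 5198 in ΔIkE120 cells.

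*Tbx21* (chr11:97098007-97115331, minus strand) encodes T-bet, the transcription factor that drives Th1 differentiation. In wt cells a peak of 1537 bases (chr11:97114456-97115992) spanned its start, with a fold enrichment of 3.16 and a −log10 q of 7.07, a value reached by 31.3% of the wt peaks. In ΔIkE120 cells the same stretch held a peak of 761 bases over the start (chr11:97114604-97115364), with a fold enrichment of 4.50 and a −log10 q of 14.28, and another of 384 bases upstream (chr11:97115565-97115948), with 2.34 and 2.18. The −log10 q of the former was reached by 14.3% of the ΔIkE120 peaks. The start of *Tbx21* was thus under peaks in both genotypes, as 1 broad region in wt and as a pair of narrower ones in ΔIkE120 cells.

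The *Tbx21* locus also had peaks upstream of the gene, where no other protein-coding gene starts nearer. The wt peak at chr11:97123565-97124299 began 8234 bp from the start, with a fold enrichment of 2.43 and a −log10 q of 3.36. ΔIkE120 cells had peaks at chr11:97123466-97123866 (fold enrichment 3.92, −log10 q 10.26) and chr11:97124087-97124383 (2.35 and 2.19), both overlapping it. A further wt peak at chr11:97128714-97128931 (2.16 and 1.70) had no counterpart. In all, *Tbx21* had 3 peaks over 2490 bases in wt and 4 peaks over 1843 bases in ΔIkE120 cells, a ratio of 0.74 that was not called.

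*Ifng* (chr10:118441046-118445894, plus strand), which encodes interferon gamma, the signature cytokine of Th1 cells, had 0 peaks in the locus in either list. The nearest peak lay just outside the 20 kb window, 21111 bp upstream of the start in wt (chr10:118419171-118419935) and 21379 bp upstream in ΔIkE120 cells (chr10:118418872-118419667). Its fold enrichment was 4.26 in wt and 4.43 in ΔIkE120 cells, and its −log10 q 5.80 and 6.65. No protein-coding gene starts nearer to this peak than *Ifng*, which has conserved enhancers upstream as well as downstream. The nearest peak to *Ifng* thus had like values in both genotypes, and would count for the locus in a wider window.

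The Th2 cytokine genes *Il4*, *Il13* and *Il5* lie on chromosome 11 on either side of *Rad50*, a DNA repair gene that is known to hold a locus control region for them. *Il4* (chr11:53612460-53618665, minus strand), the cytokine that drives Th2 differentiation, had no peak at the start or in the gene body. A wt peak lay downstream of the gene at chr11:53609432-53609918, with a fold enrichment of 2.49 and a −log10 q of 1.52. ΔIkE120 cells had one at chr11:53609369-53609682 (2.80 and 2.04), which overlapped it, and another at chr11:53605389-53605730 (2.69 and 1.78). All were weak for their lists, as 95.2% of the wt peaks and at least 85.2% of the ΔIkE120 peaks had a −log10 q as high. *Il4* had 487 bases under peaks in wt and 656 in ΔIkE120 cells, a ratio of 1.35 that was not called, and with 50 kb on either side the ratio was 0.859, in the opposite direction.

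*Il13* (chr11:53631323-53634702, minus strand), a cytokine of allergic inflammation and of defence against worms, shares part of its window with *Il4* and had 0 peaks in either list. Its nearest peak was the one downstream of *Il4*, 24784 bp from the *Il13* start in wt and 25020 bp in ΔIkE120 cells. In the interval between the *Il13* and *Il5* windows (chr11:53654703-53700793), which lies inside *Rad50*, wt cells had 1 peak of 263 bases (chr11:53685041-53685303, fold enrichment 2.66, −log10 q 1.18) and ΔIkE120 cells 0. The *Il4* and *Il13* promoters and most of the body of *Rad50* thus carried few or no peaks in either genotype.

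*Il5* (chr11:53720794-53725103, plus strand), the growth factor of eosinophils, was called lower, and all but 1 of its peaks lay nearer to its own start than to that of any other gene. In wt cells a peak lay 290 bp upstream of the start (chr11:53720188-53720504), with a fold enrichment of 2.35 and a −log10 q of 1.59, a value reached by 93.7% of the wt list. Next to it, with its edge 992 bp from the start, was a peak at chr11:53719386-53719802, with a fold enrichment of 3.26 and a −log10 q of 5.22. ΔIkE120 cells had only the latter, at chr11:53719339-53719744, with 2.55 and 1.71. Its near edge lay 1050 bp from the start, just outside the 1 kb searched. With 2.5 kb on either side, *Il5* had a peak at the start in both lists, so that its marking in wt alone depended on the window.

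Downstream of *Il5*, wt cells had peaks at chr11:53735867-53736218 (fold enrichment 3.02, −log10 q 4.68), chr11:53736828-53737072 (2.74 and 3.32) and chr11:53737316-53737794 (3.39 and 6.15). ΔIkE120 cells had only the one farthest from the gene, at chr11:53737321-53737704 (3.78 and 6.86). The remaining peak of the window belonged to the start of *Rad50*, at chr11:53706685-53707994 in wt (5.14 and 30.12) and chr11:53706640-53707878 in ΔIkE120 cells (5.45 and 36.40), the highest −log10 q of the effector windows in both lists. *Il5* thus had 6 peaks over 3120 bases in wt and 3 peaks over 2029 bases in ΔIkE120 cells, a ratio of 0.65, and the ratio was no higher than this in 11.5% of the loci with bases under wt peaks. The peaks missing in ΔIkE120 cells had a −log10 q of at most 4.68 in wt. When the same number of top peaks was taken from each list, the ratio was 0.724, and with 50 kb on either side it was 0.75, neither of which was called. The ratio was lower under other settings. With 10 kb it was 0.553, not called because fewer than 1000 bases remained. Without peaks under their list's median −log10 q it was 0.634, and with only the peaks nearest to a member's start 0.436, both called.

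**Figure D2:**
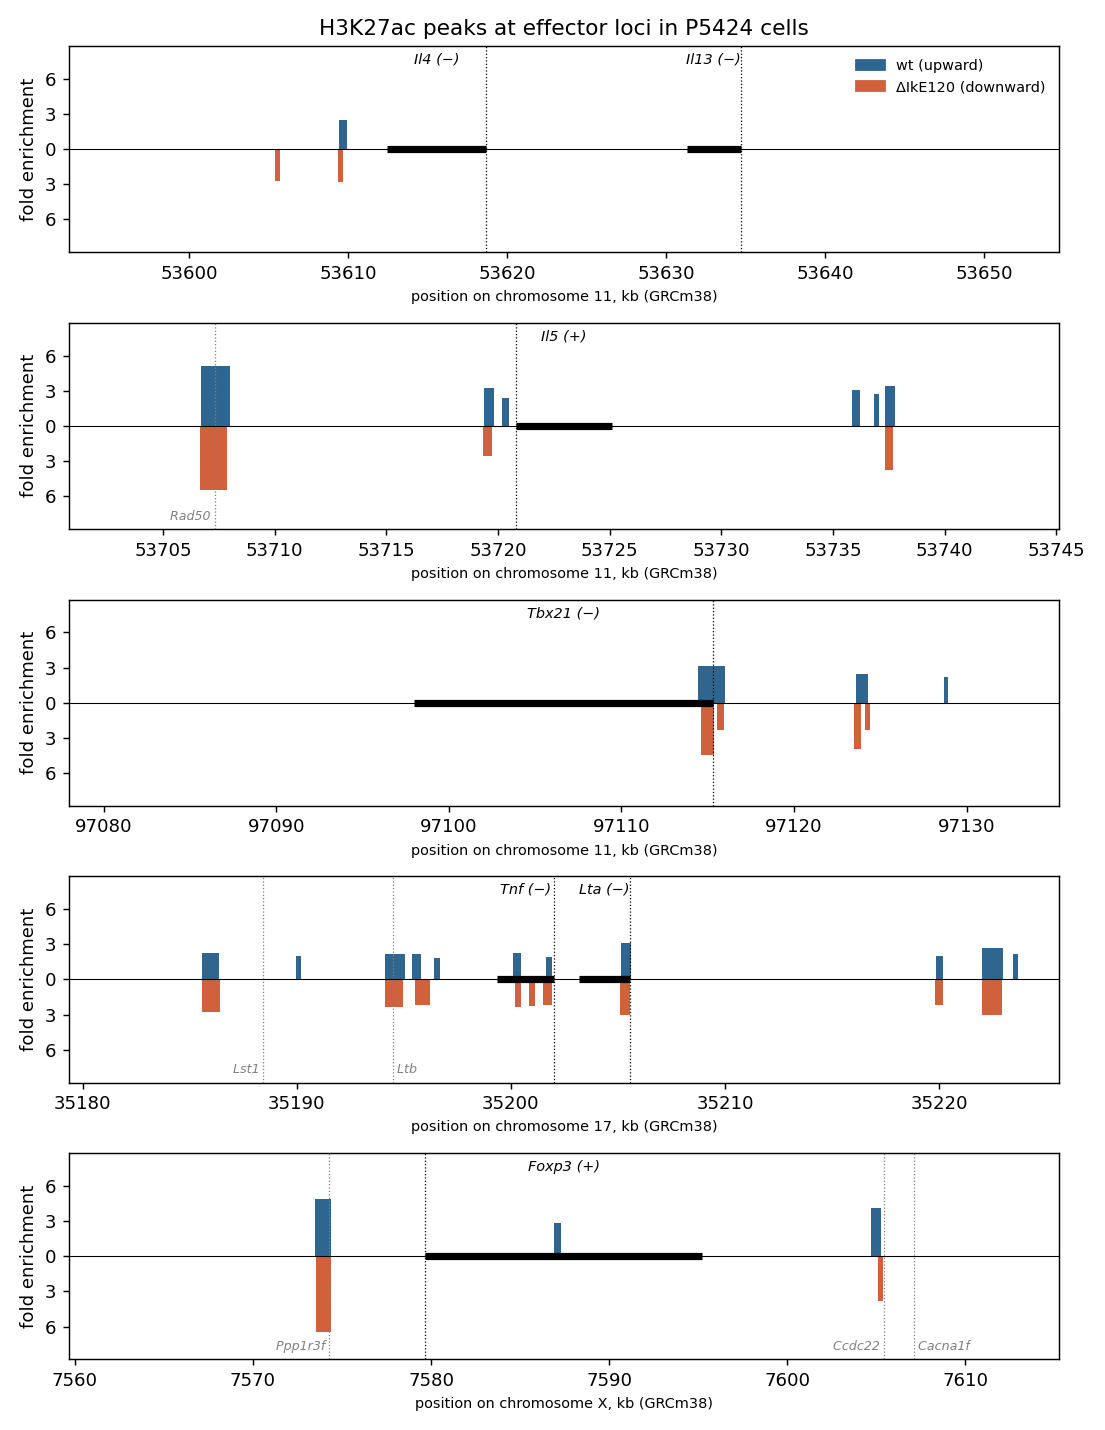
H3K27ac peaks at the effector loci that had any, with position in kb (GRCm38) on the horizontal axis and fold enrichment on the vertical axis, upward for wt (blue) and downward for ΔIkE120 cells (orange). Black bars are the effector genes with their strand, dotted black lines their starts, and dotted grey lines the starts of neighbouring genes, such as *Rad50*, where fold enrichment reached 5.14 and 5.45.

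*Il17a* (chr1:20730905-20734496, plus strand), the signature cytokine of Th17 cells, had 0 peaks in the locus in either list. The nearest peak was at the start of *Mcm3*, a DNA replication gene, 88164 bp downstream in wt (chr1:20819069-20820319) and 88270 bp in ΔIkE120 cells (chr1:20819175-20820326). In wt cells 23.5% of all genes, and in ΔIkE120 cells 24.3%, had their nearest peak at least as far away. *Il2* (chr3:37120713-37125954, minus strand), the growth factor that activated T cells make for themselves, likewise had 0 peaks. Its nearest wt peak lay 48451 bp upstream (chr3:37174405-37174665) and was weak, with a fold enrichment of 2.89 and a −log10 q of 1.59. In ΔIkE120 cells the nearest was at the start of *Bbs12*, a gene of the primary cilium, 186241 bp upstream (chr3:37312195-37313086, 5.13 and 13.11). *Il2* and *Il17a* were the members farthest from a peak in both genotypes.

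*Foxp3* (chrX:7579676-7595243, plus strand), the leading transcription factor of regulatory T cells, had no peak at the start in either list. The only peak in its gene body was found in wt cells at chrX:7586887-7587291, with a fold enrichment of 2.81 and a −log10 q of 1.43, a value reached by 96.9% of the wt peaks. The other peaks of the locus lay at the starts of neighbours. At *Ppp1r3f*, a regulatory subunit of protein phosphatase, wt cells had a peak at chrX:7573475-7574391 (4.92 and 13.32) and ΔIkE120 cells at chrX:7573536-7574372 (6.42 and 18.98). At *Ccdc22*, a gene of endosomal trafficking, they had peaks at chrX:7604697-7605266 (4.11 and 4.66) and chrX:7605118-7605368 (3.78 and 3.42).

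The *Foxp3* locus was called lower, with 3 peaks over 1892 bases in wt and 2 peaks over 1088 bases in ΔIkE120 cells, a ratio of 0.575 that 8.58% of the loci with bases under wt peaks matched or went below. Of the wt bases, 405 were in *Foxp3* itself and the others at its neighbours. When the same number of top peaks was taken from each list, the ratio was 0.732 and the locus was not called. It was called with 10 kb (0.515), with 50 kb (0.575) and without peaks under their list's median −log10 q (0.563). The difference was made up of the peak in the gene body and of shorter ΔIkE120 peaks at both neighbours.

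*Tnf* and *Lta* lie side by side in the major histocompatibility complex on chromosome 17 and share most of their windows. *Lta* (chr17:35203165-35205578, minus strand) encodes lymphotoxin alpha, which is known for its part in the formation of lymphoid organs. A peak lay at its start in both genotypes, at chr17:35205147-35205617 in wt (fold enrichment 3.08, −log10 q 9.16) and chr17:35205083-35205561 in ΔIkE120 cells (2.99 and 6.76). Among the peaks at members' starts, this one had the highest −log10 q in wt cells, where it exceeded that of *Tbx21*, and the order was the opposite in ΔIkE120 cells.

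*Tnf* (chr17:35199367-35202007, minus strand), which encodes the inflammatory cytokine TNF, was marked just inside the gene. The peak ended 79 bp downstream of the start in both lists, at chr17:35201617-35201928 in wt (fold enrichment 1.93, −log10 q 1.98) and chr17:35201517-35201928 in ΔIkE120 cells (2.16 and 2.45). The body of *Tnf* held another peak in both, at chr17:35200094-35200473 in wt (2.23 and 4.62) and chr17:35200186-35200458 in ΔIkE120 cells (2.33 and 3.97), and ΔIkE120 cells had 1 more at chr17:35200833-35201138 (2.24 and 3.38). Peaks thus covered 692 bases of the gene body in wt and 991 in ΔIkE120 cells. For *Lta* the gene body had 432 and 479 bases under peaks.

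The windows of *Tnf* and *Lta* also hold *Ltb*, which encodes lymphotoxin beta, the partner of lymphotoxin alpha. Its start was under a peak at chr17:35194141-35195034 in wt (fold enrichment 2.19, −log10 q 4.42) and chr17:35194118-35194953 in ΔIkE120 cells (2.32 and 3.69). On the other side, in the gene body of *Nfkbil1*, wt cells had a peak at chr17:35221976-35223000 (2.72 and 6.48) and ΔIkE120 cells at chr17:35222008-35222947 (3.02 and 6.64). Counting all peaks, *Tnf* had 10 over 4112 bases in wt and 8 over 4258 bases in ΔIkE120 cells, a ratio of 1.04. The *Nfkbil1* peak counts for *Tnf* in wt only, as the *Tnf* window ends at 35222007, just short of the ΔIkE120 peak. *Lta* had 11 over 5343 bases and 9 over 5198 bases, a ratio of 0.973. The *Lta* locus had more bases under wt peaks than 94.2% of all loci. Of its 5343 wt bases, 432 lay in the gene body of *Lta*, and others lay at neighbours such as *Ltb* and *Nfkbil1*. Neither *Tnf* nor *Lta* was called in either direction. When peaks with a −log10 q under their list's median were left out, however, the ratio was 0.219 for *Tnf* and 0.447 for *Lta*. The ΔIkE120 peaks near *Ltb* and in *Tnf* lay below that list's median of 4.47. The wt median was lower, at 4.12, so the wt peaks near *Ltb* at 4.42 and 4.31 were kept. The ΔIkE120 peak in *Lst1*, at 4.22, was left out but would have passed the wt median.

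Together, the windows formed 8 separate regions of 399341 bases. They held 24 peaks over 13332 bases in wt and 20 peaks over 10814 bases in ΔIkE120 cells. The ratio of the bases was 0.811, compared with 0.879 for the whole lists. A peak of the other list overlapped 16 of the 24 wt peaks (66.7%) and 18 of the 20 ΔIkE120 peaks (90.0%). Both shares were close to those of the whole lists, 74.4% and 86.4%. A member had the nearest gene start for 14 of the wt peaks and 13 of the ΔIkE120 peaks, and the rest lay nearer to neighbours. The median −log10 q was 3.83 in wt and 3.56 in ΔIkE120 cells, below the medians of 4.12 and 4.47 over the whole lists, and 12 of 24 and 13 of 20 peaks were below these medians. Of the 6 other protein-coding genes that start in the windows, 4 had a peak at the start in both lists (*Rad50*, *Ltb*, *Ppp1r3f* and *Ccdc22*).

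Genes related to the members by function were marked to differing degrees. Of 24 other effector genes, mostly cytokines, chemokines and cytotoxic molecules, 4 had a peak at the start in wt (*Il10*, *Ltb*, *Tnfsf11* and *Gzma*) and 3 in ΔIkE120 cells, where *Il10* had none. At *Tnfsf11*, which encodes the cytokine RANKL, the fold enrichment was 3.70 in wt and 3.73 in ΔIkE120 cells. At *Gzma*, a granzyme of cytotoxic cells, it was 2.67 and 2.75. These shares, 16.7% and 12.5%, were below those of all genes.

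Of 20 regulators of effector fate, 12 had a peak at the start in wt and 13 in ΔIkE120 cells, compared with 45.0% and 44.3% of all genes. *Stat5a* and *Stat5b* among them share 1 peak. Among the wt peaks with the highest −log10 q were those at *Stat3* (18.74 in wt, 11.89 in ΔIkE120 cells), which acts downstream of several cytokine receptors, and *Stat6* (9.46 and 8.75), which acts downstream of the IL-4 receptor. *Gata3*, the leading factor of the Th2 fate and a factor of early T cells, had 5.54 and 6.05. Of 11 receptor genes for the cytokines among the members, 8 were marked in wt and 9 in ΔIkE120 cells, with a −log10 q of 11.68 and 10.27 at *Il4ra* and 11.60 and 9.54 at *Ifngr2*. Of 10 checkpoint and activation genes, 3 were marked in wt (*Ctla4*, *Lag3* and *Cd69*) and 4 in ΔIkE120 cells, which also had *Tnfrsf9*. Whether these lists differ from the effector loci was not tested.

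**Figure D3:**
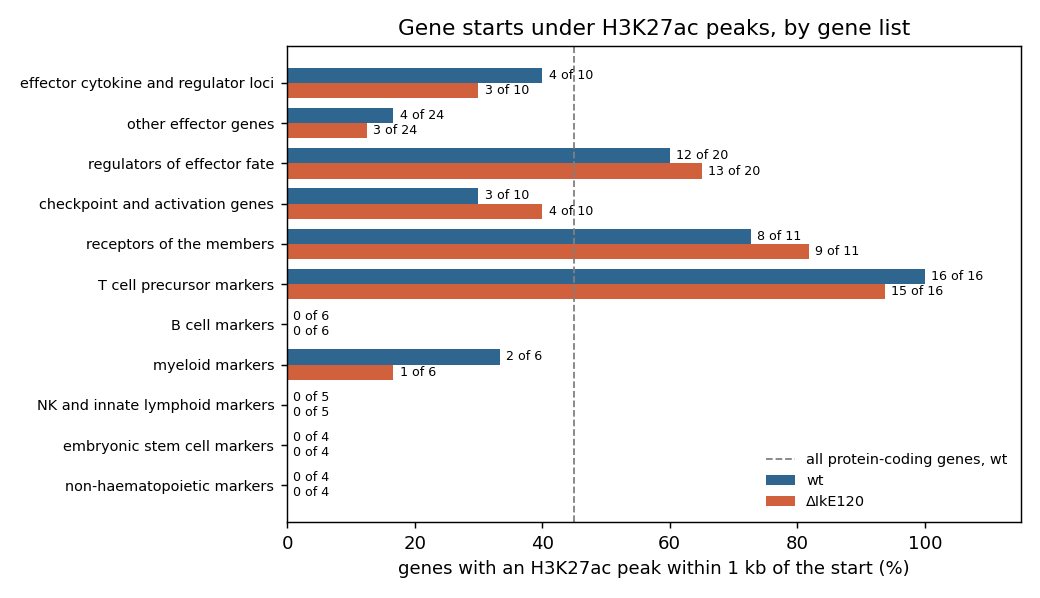
Share of genes with an H3K27ac peak within 1 kb of the start, in percent, for the effector loci and for each gene list, in wt (blue) and ΔIkE120 cells (orange), with counts at the bars. The dashed line marks the 45.0% of all protein-coding genes in wt cells, and the 16 T cell precursor markers have the highest share in both genotypes.

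The promoter sequences of the members were set beside the peaks, since H3K27ac peaks at gene starts go with promoters rich in CG dinucleotides (CpG). In 300 bases around the start (250 before and 50 after), the *Tbx21* promoter had 21 CpG and *Tnf* 11, while *Ifng* had 7, *Il17a* and *Foxp3* 6 each, *Il5* 4, *Il13* 3, and *Il2* and *Il4* 2 each. For *Lta*, the promoter on record starts within the gene and had 10. Peaks covered all 300 of the *Tbx21* bases in wt and 100 in ΔIkE120 cells, and 300 and 260 of those at *Lta*. They covered 0 in the other members, including *Tnf* and *Il5*, whose peaks at the start lay beside this stretch. The 250 bases upstream of the start are shown for *Tbx21* and *Tnf*, which had a peak at the start in both lists, for *Il5*, which had one in wt, and for *Ifng* and *Il2*, which had none. Sequences are from RefSeq (GRCm38.p6), read along the gene's strand, with CpG in capitals. They lie at chr11:97115332-97115581 (minus strand) for *Tbx21*, chr17:35202008-35202257 (minus) for *Tnf*, chr11:53720544-53720793 (plus) for *Il5*, chr10:118440796-118441045 (plus) for *Ifng* and chr3:37125955-37126204 (minus) for *Il2*.

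Tbx21: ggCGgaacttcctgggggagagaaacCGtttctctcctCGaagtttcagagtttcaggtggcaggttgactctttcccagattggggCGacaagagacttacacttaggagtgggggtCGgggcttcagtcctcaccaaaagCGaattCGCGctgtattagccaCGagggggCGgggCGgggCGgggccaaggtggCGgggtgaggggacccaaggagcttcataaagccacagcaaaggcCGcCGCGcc

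Tnf: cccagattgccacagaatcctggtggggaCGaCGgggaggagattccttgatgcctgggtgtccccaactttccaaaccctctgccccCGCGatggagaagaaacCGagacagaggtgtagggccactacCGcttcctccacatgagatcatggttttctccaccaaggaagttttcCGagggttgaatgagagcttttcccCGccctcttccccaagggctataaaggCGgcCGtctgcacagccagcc

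Il5: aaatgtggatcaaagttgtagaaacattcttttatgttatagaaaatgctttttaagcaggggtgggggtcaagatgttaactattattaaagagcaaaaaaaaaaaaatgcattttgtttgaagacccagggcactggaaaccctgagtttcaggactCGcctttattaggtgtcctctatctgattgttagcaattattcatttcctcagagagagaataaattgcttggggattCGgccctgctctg

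Ifng: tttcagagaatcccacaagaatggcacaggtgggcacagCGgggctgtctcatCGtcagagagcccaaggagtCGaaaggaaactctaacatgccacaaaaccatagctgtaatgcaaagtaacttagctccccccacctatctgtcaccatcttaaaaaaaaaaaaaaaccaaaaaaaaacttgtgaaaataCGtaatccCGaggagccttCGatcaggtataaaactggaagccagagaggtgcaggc

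Il2: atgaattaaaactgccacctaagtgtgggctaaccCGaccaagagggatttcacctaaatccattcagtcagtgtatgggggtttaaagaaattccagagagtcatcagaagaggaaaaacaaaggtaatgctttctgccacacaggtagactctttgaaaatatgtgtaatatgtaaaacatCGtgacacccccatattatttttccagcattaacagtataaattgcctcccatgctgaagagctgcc

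The *Tbx21* sequence holds 16 CpG, the *Tnf* sequence 10, *Ifng* 6, and *Il5* and *Il2* 2 each.

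Short motifs of factors that act on these genes were searched on both strands of the 300 bases at the members' starts. GGAAA, the core bound by NFAT, was found at each gene start except *Il17a*, with 5 matches at *Il4*, and 61.3% of all 32851 promoters on record held it. TATAAA, a form of the TATA box, was found at *Ifng*, *Il2*, *Il13*, *Il17a*, *Tnf* and *Foxp3*, against 13.6% of all promoters. It was not found at *Tbx21*, *Il4* or *Il5*, and other forms of the TATA box were not searched for. The *Lta* promoter on record starts within the gene and is left out of the other motif results. It held 1 match to TATAAA, 3 matches to the NFAT core and 1 E-box. TGANTCA, which AP-1 binds, was found at *Il17a* alone (7.81% of all promoters), and GGGANTTCC, an NF-κB sequence, at none of the members (1.68%). TGTGGT, the Runx core, was found at *Il13* and *Il17a* (16.8%), and AGATAA, the motif of GATA factors, was found at *Il13* (11.2%). CANNTG, the E-box, was found at *Ifng*, *Il4*, *Il17a*, *Tnf*, *Tbx21* and *Foxp3* (72.3%). These matches describe the letters only, and TATAAA was found at gene starts with and without a peak.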

How the data were processed

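H3K27ac ChIP-seq of P5424 cells was analysed from 2 peak lists, 1 per genotype, and the 6 4C libraries of the study were not used. The submitters' processing notes list Bowtie2 2.3.4.3, MACS2 2.1.1 and GRCm38, without their roles. The authors deposited each peak with a score, a fold enrichment (a ratio to the background of the caller) and −log10 p and q values. The settings of the caller are not given in the sources used here, nor are read counts. Peak positions were converted to start at 1.

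Gene starts were from RefSeq (GRCm38.p6) and strands from the RefSeq promoter table, or by symbol from GENCODE, for 20921 of 21627 protein-coding genes (96.7%). An overlap of 1 base counted. Windows were tested on simulated data, with 0 differences in 1000 windows from a search base by base. Exons and introns are not given, since no exon annotation of this build was used here. Python 3.11.15, numpy 2.4.6, pandas 2.3.3 and matplotlib 3.10.9 were used.

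All members are named. Genes of the lists are named where they have a peak at the start in either list, with the highest −log10 q in wt where there are over 8. The members and lists were chosen with earlier results of these data known. Alternatives were other flanks and start windows, leaving out peaks under their list's median −log10 q, the same number of top peaks from each list, an overlap of 50% of the peak and, chosen after seeing the data, only peaks whose nearest gene start is a member's.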

Additional observations from a re-analysis of the deposited data

How the results depend on the processing

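The number of peaks in the effector windows (24 in wt, 20 in ΔIkE120 cells) and their bases (13332 and 10814) followed the choice of window and of peaks. With 10 kb on either side there were 15 and 15 peaks over 8308 and 6917 bases. With 50 kb there were 46 and 36 peaks over 29966 and 25968 bases. In the gene bodies alone there were 5 and 5 peaks over 2405 and 2198 bases. Without peaks under their list's median −log10 q there were 12 and 7 peaks over 8759 and 5041 bases. With only the peaks nearest to a member's start, a choice made after seeing the data, there were 14 and 13 peaks over 6705 and 5134 bases. With the same number of top peaks from each list there were 19 and 20 peaks over 11555 and 10814 bases. The higher number of peaks in wt cells was thus not seen with 10 kb or in gene bodies, and was reversed with equal numbers of peaks. The shifts within a list follow from the number of bases or peaks that each setting admits. The ratio of the summed bases was below 1 in each, from 0.576 to 0.936. The whole ΔIkE120 list itself covered 0.879 times the wt bases, and these ratios lay on both sides of that value. The ratio of summed bases over all loci was not computed under the other settings. The count of 2 members called lower was the least stable. It was 1 with 10 kb (*Foxp3*; 4.64% of all loci), 1 with 50 kb (*Foxp3*; 5.61%), 0 in gene bodies (3.44%), 4 without peaks under the median −log10 q (*Il5*, *Foxp3*, *Tnf* and *Lta*, the latter pair with shared peaks; 6.34%) and 0 with the same number of top peaks (3.39%). With the nearest peaks only it was 1 (*Il5*), and the share of all loci was not computed. There *Foxp3* had 405 bases in wt and 0 in ΔIkE120 cells, under the 1000 bases needed for a call. With 10 kb, *Il5* likewise fell under 1000 bases, although its ratio was 0.553, lower than the 0.65 with 20 kb. Its ratio was nearer to 1 with 50 kb (0.75) and with the same number of top peaks (0.724). No member was called higher under any of these settings. Peaks at the start were found at 3 to 4 members in wt and 2 to 4 in ΔIkE120 cells. Without read counts or replicates, a weak peak present in 1 list only cannot be told apart from one just below the caller's threshold in the other. No paired analysis was possible because each genotype has 1 library.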

Other observations

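Several related loci had peaks without one at the gene start. Of the 24 other effector genes, 12 had a peak in the locus in wt and 12 in ΔIkE120 cells, and 4 and 3 had one at the start. No peak in either list was found at 11 of the 24, compared with 31.7% of all protein-coding loci. *Cd40lg*, which encodes the ligand of CD40, had 2543 bases under peaks in wt and 1806 in ΔIkE120 cells, and *Il22*, a neighbour of *Ifng* on chromosome 10, had 1465 and 1313. By the rule used for the members, 5 of the 24 loci were called lower in ΔIkE120 cells (*Il10*, *Fasl*, *Gzmk*, *Ccl3* and *Ccl4*, the last a neighbour that shares its peaks with *Ccl3*) and 1 higher (*Gzma*, 986 and 1542 bases), compared with 5.11% and 0.712% of all protein-coding loci. Of the 20 regulators of effector fate, 4 were called lower (*Maf*, *Stat4*, *Ikzf2* and *Ikzf4*) and 0 higher, beside the same shares of all loci. *Ikzf2* and *Ikzf4* belong to the Ikaros family, as *Ikzf1* does, and whether this bears on their calls was not tested. Calls in these lists were made with 20 kb on either side and all peaks, and were not repeated under the other settings. *Ikzf2* had 5 peaks over 2688 bases in wt and 2 over 1104 bases in ΔIkE120 cells, and *Ikzf4* 5 peaks over 3167 bases and 1 over 1177 bases. Of the 11 receptors, 1 was called lower (*Il2rb*, 3933 and 1767 bases), of the 16 T cell precursor markers 1 (*Zap70*), of the 10 checkpoint and activation genes 0, and of the 25 markers of other cell types 2 (*Mpo* and *Il23r*), and 0 of each were called higher. Genes without a peak at the start are named here after their values were seen.

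Among promoters on record at gene starts, the 4299 with a wt peak at the start had a median of 21 CpG in 300 bases and the 6070 without had 3. A wt peak at the start was found for 4.89% of promoters with 0 to 4 CpG, 23.5% with 5 to 9, 62.6% with 10 to 19 and 78.5% with at least 20. Among the members, *Tbx21* falls in the class with at least 20, *Tnf* in that with 10 to 19, and *Il5* had a wt peak near the start with 4 CpG.

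At a like −log10 q, fold enrichment differed between the effector loci. Over all wt peaks with a −log10 q from 4 to 5, the median fold enrichment was 3.08, with quartiles of 2.64 and 3.48. The wt peaks of the *Tnf* and *Lta* windows in this range, at −log10 q of 4.42, 4.31 and 4.62, had 2.19, 2.18 and 2.23, all below the lower quartile, while the median of chromosome 17 was 3.07. The ΔIkE120 peak of these windows in this range, at 4.22, had 2.77, above the lower quartile of 2.72 in that list. Elsewhere in the effector windows, the wt peak downstream of *Il5* at 4.68 had 3.02, between the wt quartiles. The wt peak at *Ccdc22*, in the *Foxp3* window, had 4.11 at 4.66, above the upper quartile. On chromosome X, which holds *Foxp3*, the median was 3.53, and in ΔIkE120 cells it was 3.84 there against 3.14 over the whole list.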
